A study of Mus musculus with 4 samples.

Results

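The genes described here are the AP-1 and immediate early genes Fos, Fosb, Jun, Junb, Jund, Egr1, Atf3, Ier2, Dusp1 and Klf6 in mouse Langerhans cells. They are 10 of the 12393 genes that the platform annotation names by a probe set of their own, and all probe sets assigned to exactly 1 of the 10 symbols were taken, 13 of the 22690 on the array. A probe set is a group of short probes that reads 1 stretch of a transcript, and a symbol can have several: 8 genes had 1, Jun had 2 and Klf6 had 3. All 13 passed the expression filter.

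Langerhans cells are the dendritic cells of the epidermis, and TCDD (2,3,7,8-tetrachlorodibenzo-p-dioxin) is a dioxin that activates a ligand-dependent transcription factor, the aryl hydrocarbon receptor (AhR). The 4 samples were 2 of cells from mice given 10 µg TCDD, in oil for TCDD 1 and by intraperitoneal injection in DMSO and oil for TCDD 2, and 2 controls, control 1 having received 100 µl DMSO and olive oil. TCDD 2 and control 2 came from back skin, and the labels name no site for TCDD 1 and control 1. The cells were collected 24 h after treatment, at a stated sorting purity of 95%. The title and description of control 2 name a control, but its treatment protocol names TCDD. Strain, sex, age and pooling of the animals were not given in the labels used here. The spread behind the p-values may therefore not measure that between animals. TCDD 1 and control 1 were taken as 1 preparation (the unnamed site) and TCDD 2 and control 2 as another (back skin), each with its own site and experiment, which cannot be told apart. With preparation in the fit, the spread of a probe set is how far its TCDD difference disagreed between the preparations, moderated across probe sets. This spread can mix differences of site, experiment, dosing and technique. That TCDD 1 and control 1 share a site and an experiment, and TCDD 2 and control 2 an experiment, is an assumption from the titles, and the block, the ratios within preparations and the counts of opposite directions rest on it.

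AP-1 is a dimer of basic leucine zipper proteins of the Fos, Jun and ATF families, which binds short DNA sites in many genes of growth, stress and inflammation. Its subunit genes belong to the immediate early genes, which are transcribed without new protein synthesis when kinase cascades signal growth factors, stress or cell handling, and whose mRNAs decay quickly. Egr1 and Klf6 encode zinc finger transcription factors of the same kind of response, Ier2 a nuclear protein, and Dusp1 a phosphatase that switches off the MAP kinases upstream. In dendritic cells, AP-1 and its relatives are known for their part in maturation and cytokine transcription.

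Many immediate early promoters carry sites for CREB and ATF proteins, and the AhR binds xenobiotic response elements. The promoters of Fos, Atf3, Dusp1 and Junb are shown as examples. All of these hold the core marked below, while those of Jun, Jund and Klf6, which are not shown, lack it. The sequences shown are given 5′ to 3′ in the direction of transcription, from 250 bases before to 50 bases after the start, from RefSeq on GRCm38.p6. Capitals mark the core TGACG of the cyclic AMP response element on either strand, which reads CGTCA when it lies on the other strand.
Fos promoter (chr12:85473640-85473939, plus strand): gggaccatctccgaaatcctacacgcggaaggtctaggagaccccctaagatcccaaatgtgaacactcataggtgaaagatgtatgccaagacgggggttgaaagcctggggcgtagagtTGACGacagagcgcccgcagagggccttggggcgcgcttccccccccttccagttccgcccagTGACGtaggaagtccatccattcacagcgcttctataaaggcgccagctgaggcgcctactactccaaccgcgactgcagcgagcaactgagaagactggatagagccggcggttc
Atf3 promoter (chr1:191183284-191183583, minus strand): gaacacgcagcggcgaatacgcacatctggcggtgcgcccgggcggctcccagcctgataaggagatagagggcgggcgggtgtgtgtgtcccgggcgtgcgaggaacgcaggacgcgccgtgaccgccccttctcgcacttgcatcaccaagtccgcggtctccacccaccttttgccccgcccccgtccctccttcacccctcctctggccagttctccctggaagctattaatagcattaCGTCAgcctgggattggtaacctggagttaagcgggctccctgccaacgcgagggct
Dusp1 promoter (chr17:26508423-26508722, minus strand): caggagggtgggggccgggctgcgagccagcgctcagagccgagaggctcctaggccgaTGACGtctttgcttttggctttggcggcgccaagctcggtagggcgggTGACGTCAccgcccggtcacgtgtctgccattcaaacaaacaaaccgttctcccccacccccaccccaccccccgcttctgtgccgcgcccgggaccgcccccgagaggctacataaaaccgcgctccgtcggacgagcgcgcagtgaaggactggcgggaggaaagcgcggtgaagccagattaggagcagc
Junb promoter (chr8:84978699-84978998, minus strand): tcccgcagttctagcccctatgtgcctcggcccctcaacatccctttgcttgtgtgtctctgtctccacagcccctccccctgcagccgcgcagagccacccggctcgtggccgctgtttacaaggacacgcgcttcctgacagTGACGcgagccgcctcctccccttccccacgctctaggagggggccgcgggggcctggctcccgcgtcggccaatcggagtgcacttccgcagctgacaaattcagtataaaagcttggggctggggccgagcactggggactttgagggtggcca

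The promoter table used here listed 8 of the 10 genes; those of Egr1 and Ier2 were not analysed here. The core TGACG occurred on either strand in 5 of these 8, namely Fos, Fosb, Junb, Atf3 and Dusp1, against 20.8% of all 32851 promoters of the same length. In Dusp1, the pair of overlapping cores that begins at -143, counted back from the start, forms the full element TGACGTCA, which 1.79% of all promoters held. The AP-1 site TGACTCA was in 0 of the 8 windows (5.2% of all promoters), and its variant TGACATCA, which Jun and ATF dimers bind, was in those of Jun and Klf6 (3.62%). The core GCGTG of the xenobiotic response element was in 5 of the 8, in Fos, Fosb, Junb, Atf3 and Klf6, against 32.4% of all promoters. In these 8 windows, the full element and the TGACG cores within it were the only searched motifs that overlapped. These matches describe the letters of the windows.

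RNA quality and the signals of cell type markers differed between the arrays. Actin control probe sets gave 3′ to 5′ signal ratios, which increase as RNA is shortened, of 3.48 on TCDD 1, 7.71 on TCDD 2, 49.7 on control 1 and 4.64 on control 2. The Langerhans cell markers Epcam (7541 and 8362 in TCDD, 8717 and 10032 in control samples) and Cd207 (5343 and 2155 in TCDD, 2120 and 7211 in control samples) were bright. Others of the 8 Langerhans cell markers were dim, Itgax at 169.6 and 115.3 in TCDD and 185.4 and 230.7 in control samples and Cdh1 at 206.6 and 137.8 in TCDD and 152.5 and 166.2 in control samples. The summed signal of the 8 was 37087.5 and 38321.2 in TCDD and 32750.5 and 49071.5 in control samples. Sums are given over the markers above the filter, by the brightest probe set of each. Of 7 T cell markers, 6 were above the filter. Their summed signal was 1324.5 on TCDD 1 and 710.1 on TCDD 2, against 715.3 on control 1 and 1988.2 on control 2. Of 5 keratinocyte markers, 3 were above the filter, with sums of 396.7 and 512.4 in TCDD and 390.1 and 492.6 in control samples, and no marker read 0. Of 5 melanocyte markers, 4 were above the filter, and 3 of these were lower after TCDD in both preparations (21.3% of all probe sets tested). The sums of the 4, 608.6 and 643.9 in TCDD samples, lay below those of 683.6 and 886.2 in controls. Of the mast cell, granulocyte and monocyte markers 2 of 6 were above the filter (sums of 458.9 and 330.1 in TCDD, 556.6 and 396.1 in control samples), and of the fibroblast and endothelial markers 2 of 5 (508.2 and 380.9 in TCDD, 340.2 and 679.9 in control samples). The part of these markers in the values below was not tested.

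The main comparison asked whether these genes differed in Langerhans cells after TCDD. No probe set of the family passed the test: 0 of 13 at an adjusted p under 0.05, as for all 13576 probe sets tested, of which 0% passed (limma, adjusted p = 0.9999 for each member). At an unadjusted p under 0.05 there was 1 of 13, the Klf6 probe set 1427742_a_at, against 199 of 13576 (1.47%). Without the preparation in the limma fit, 1 of 13 was again below 0.05, against 1.62% of all, but it was Junb in place of Klf6. Because these are bulk samples, fewer cells of a type and less RNA per cell cannot be told apart. The differences given below are TCDD minus control on the log2 scale of MAS5 signals, with the standard error of the fit and n = 2 per group. The standard errors of the members lay between 0.32 and 0.67, against a median of 0.36 over all probe sets tested.

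Values higher after TCDD were more frequent among the 13 probe sets than lower ones. Compared within each preparation, 6 were higher in both (19.3% of all probe sets tested), 0 were lower in both (21.3%) and 7 went opposite ways (59.4%). Of all 13, 5 were lower after TCDD for the unnamed site and higher for back skin (25.8% of all probe sets tested), and 2 the reverse (33.5%). Of the 6, 3 read Klf6, so they do not stand for as many genes. Some of the 6 were only slightly higher for back skin. Their log2 ratios there were 0.0038 for Klf6 1418280_at, 0.042 for Jun 1417409_at and 0.12 for Klf6 1427742_a_at, and 0.45 to 0.50 for the others. Of the 13, 7 were lowest and 4 highest on control 1, the array with the highest actin 3′ to 5′ ratio. The share of all probe sets tested that were lowest or highest there was not counted, so this may not be particular to these genes. By the brightest probe set of each gene, 4 of 10 genes were higher in both and 0 lower in both. The median log2 difference of the 13 was 0.14, against -0.0064 over all probe sets tested, and their median size regardless of sign was 0.24, against 0.20. In 5 of the 13 both TCDD arrays lay above both controls (12.4% of all), and in 0 they lay below (13.2%). Fosb passed the filter through its TCDD values, the geometric mean of its controls being 108.9, below the filter's 115. Without it, 5 of 12 were higher in both preparations and 4 of 12 had both TCDD arrays above both controls, and these counts describe the probe sets that passed the filter. Set against the remaining control alone, both TCDD arrays were above it in 8 of 13 without control 1 (30.4% of all) and in 7 of 13 without control 2 (36.9%), a comparison added after the data were seen.

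**Figure D1:**
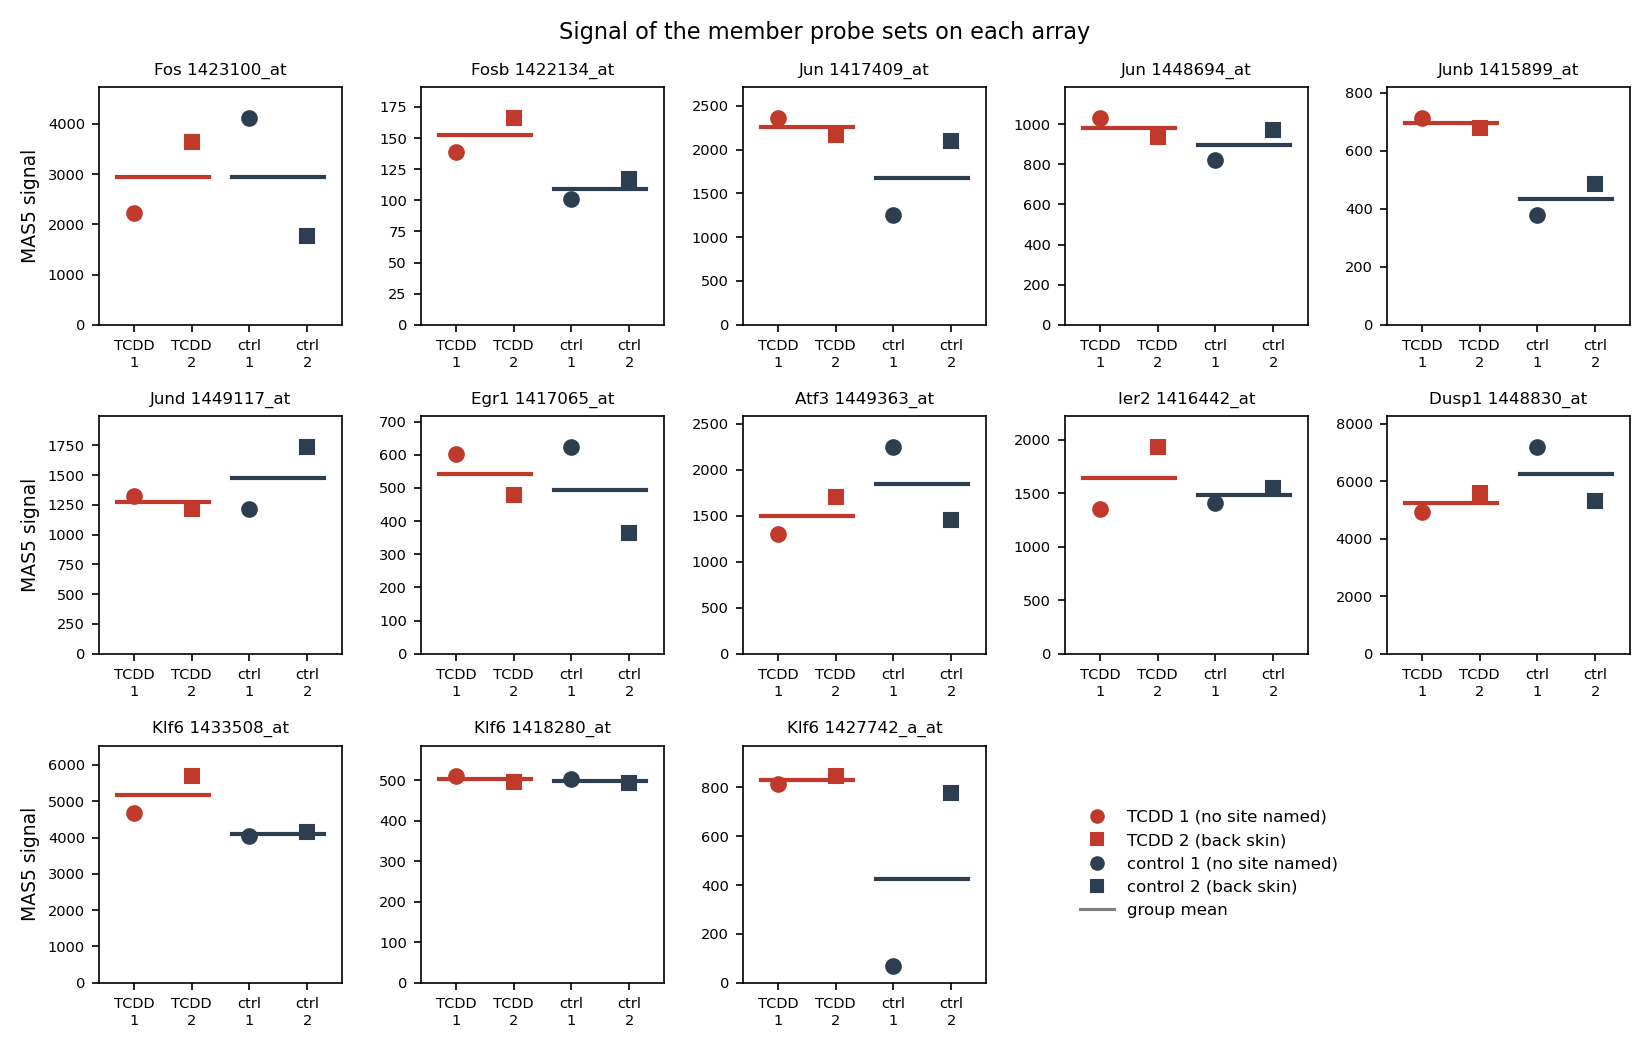
MAS5 signal (linear scale, from 0) of the 13 probe sets on TCDD 1, TCDD 2, control 1 and control 2, 1 panel each, with lines at the group means (n = 2). Junb, Fosb, the brighter Jun probe set and 2 Klf6 probe sets have both TCDD arrays above both controls, and the Klf6 probe set 1427742_a_at is at 69.1 on control 1 alone.

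Among the AP-1 subunits, Junb had the largest log2 difference. Junb encodes a Jun family member that often restrains Jun, and its probe set read 711.9 on TCDD 1 and 679.5 on TCDD 2, against 380.2 on control 1 and 486.9 on control 2. Both TCDD arrays lay above both controls, and the TCDD arrays were close to each other. The difference was 0.69 ± 0.34, a 1.62-fold higher geometric mean, with a 95% interval from -0.09 to 1.48 and an unadjusted p of 0.0762 (limma, adjusted p = 0.9999). It stayed between 0.51 and 0.87 when single arrays were left out. All fits with an array left out also drop the preparation, since 3 arrays cannot carry both terms and an error.

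Jun, the founding Jun family member, was read by 2 probe sets. The brighter one, 1417409_at, had 2355 on TCDD 1 and 2161 on TCDD 2, against 1252 on control 1 and 2099 on control 2, a difference of 0.48 ± 0.37. Only control 1 stood apart from the other arrays, and without it the difference was 0.10. The dimmer one, 1448694_at, had 1029 and 937 in TCDD samples and 821.1 and 973.2 in controls (0.14 ± 0.35). The groups overlapped, so the probe sets of Jun did not give the same picture.

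Jund, the Jun family member that is usually present in resting cells, read 1328 on TCDD 1 and 1219 on TCDD 2, against 1214 on control 1 and 1732 on control 2. Control 2 was the high array and the groups overlapped, with a difference of -0.19 ± 0.36. Without control 2 the difference was 0.067.

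Fosb, a Fos family member, was dim. It read 139.2 on TCDD 1 and 165.8 on TCDD 2, against 101.1 on control 1 and 117.3 on control 2, and the groups did not overlap. The log2 ratios of 0.46 for the unnamed site and 0.50 for back skin were close to each other, and the difference was 0.48 ± 0.45. Its interval, from -0.54 to 1.50, was wide, and both control signals were near or below the geometric mean signal of 115 at which the filter lay.

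Fos, the partner of Jun in the classic AP-1 dimer, had no common direction. Its probe set read 2231 on TCDD 1 and 3636 on TCDD 2, against 4110 on control 1 and 1773 on control 2. The high arrays were TCDD 2 and control 1, and the low arrays TCDD 1 and control 2, 1 of each group. The log2 ratio of TCDD to control was -0.88 for the unnamed site and 1.04 for back skin, and the fitted difference was 0.077 ± 0.46. The interval, from -0.98 to 1.13, includes changes of 2-fold to the higher side and of nearly 2-fold to the lower. Common effects of these sizes can therefore not be excluded with these arrays. TCDD 2 and control 1 were also the arrays with the higher actin 3′ to 5′ ratios (7.71 and 49.7, against 3.48 and 4.64) and with the lower T cell marker sums (710.1 and 715.3, against 1324.5 and 1988.2). The Langerhans cell marker Cd207 was also lower on them (2155 and 2120, against 5343 and 7211), while Epcam did not split this way (8362 and 8717, against 7541 and 10032). The part of any of these in the Fos values was not tested.

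Atf3, a stress-induced member of the ATF family, shared its highest arrays with Fos. It read 1297 on TCDD 1 and 1700 on TCDD 2, against 2240 on control 1 and 1447 on control 2. Control 1 was highest and TCDD 2 next, and the groups overlapped. The log2 ratios were -0.79 for the unnamed site and 0.23 for back skin, and the difference was -0.28 ± 0.38.

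**Figure D2:**
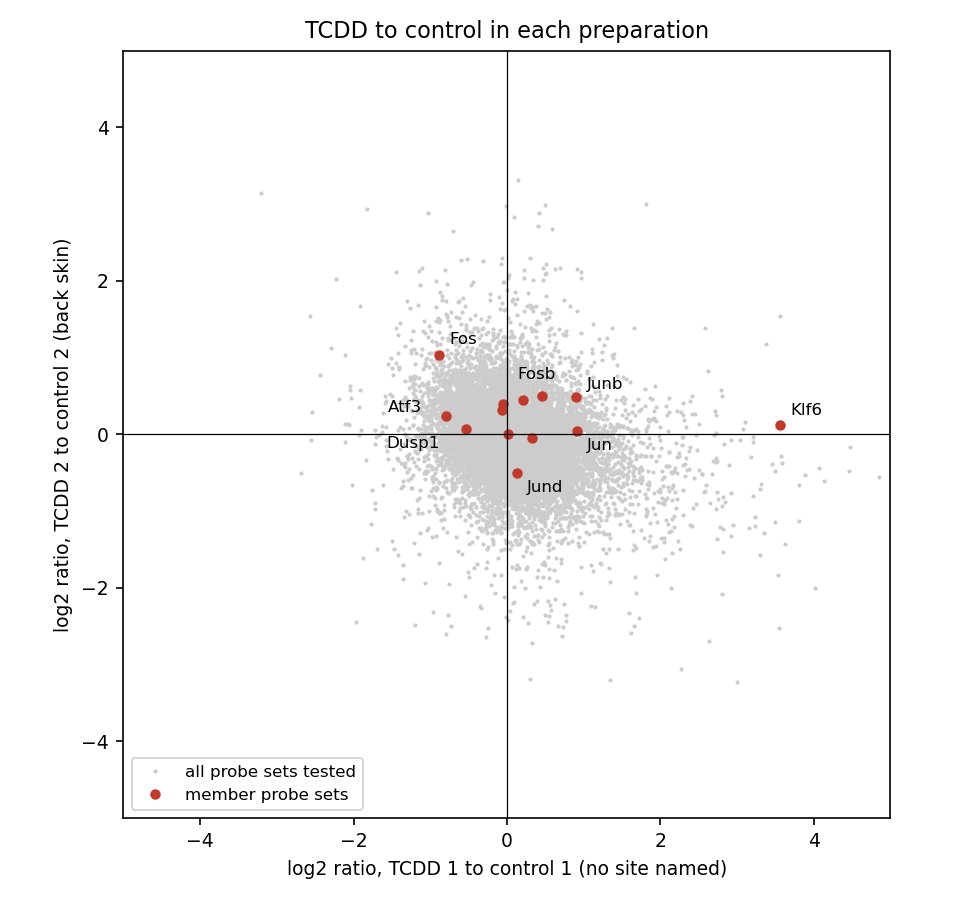
Log2 ratio of TCDD 1 to control 1 (unnamed site, horizontal) against that of TCDD 2 to control 2 (back skin, vertical) for the 13 member probe sets in red and the 13576 tested probe sets in grey. Fos lies in the upper left (-0.88 and 1.04), Junb and Fosb in the upper right, and the Klf6 probe set 1427742_a_at far to the right (3.55 and 0.12).

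Dusp1, the MAP kinase phosphatase, read 4937 on TCDD 1 and 5570 on TCDD 2, against 7168 on control 1 and 5316 on control 2. Control 1 was the high array and the other arrays were close together. The log2 ratio was -0.54 for the unnamed site and 0.067 for back skin, the difference was -0.24 ± 0.33, and without control 1 it was -0.020.

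Egr1, a zinc finger factor induced through serum response factor, read 603 on TCDD 1 and 478.7 on TCDD 2, against 622 on control 1 and 365.2 on control 2. Both back skin arrays lay below both others, the treatment groups overlapped, and the difference for TCDD was 0.17 ± 0.34. Ier2, a nuclear immediate early protein, read 1352 and 1927 in TCDD samples and 1410 and 1552 in controls, with overlapping groups and a difference of 0.13 ± 0.34.

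Klf6, a Krüppel-like factor, gave 3 different pictures by its 3 probe sets. The brightest, 1433508_at, read 4672 on TCDD 1 and 5681 on TCDD 2, against 4046 on control 1 and 4158 on control 2. The groups did not overlap, and the difference was 0.33 ± 0.32. The probe set 1418280_at read 509.8 and 495.2 in TCDD samples and 502.7 and 493.9 in controls. These 4 values spanned 0.046 log2 units, and the difference was 0.012 ± 0.34.

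The third Klf6 probe set, 1427742_a_at, read 812.1 on TCDD 1 and 844.5 on TCDD 2, against 69.1 on control 1 and 777.1 on control 2. A single array, control 1, was low, and the other 3 differed little. The difference was 1.84 ± 0.67, with an unadjusted p of 0.0243 (limma, adjusted p = 0.9999). Without control 1 it was 0.092, and without control 2, against control 1 alone, it was 3.58 (limma, adjusted p = 3.493e-07), a fit that called 2.10% of all probe sets and 1 of the 13. Without control 1, 0 of the 13 and 0.0884% of all passed. The control 1 signal lay under the filter's 115 and detection calls were not used here, so the differences that rest on it are not exact. The other Klf6 probe sets read 4046 and 502.7 on that array, close to control 2 (4158 and 493.9). Probe sets of the Langerhans cell marker H2-Ab1 also differed from each other on control 1. Its brightest read 975.7 there and 1495.5 on control 2, and another above the filter 49.4 and 623. This gene is an example named after its values were seen, and how often probe sets of a gene differed so was not counted. Control 1 also had the highest 3′ to 5′ ratios, 49.7 for actin and 106.8 for Gapdh. Their part in the Klf6 and H2-Ab1 values was not tested.

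**Figure D3:**
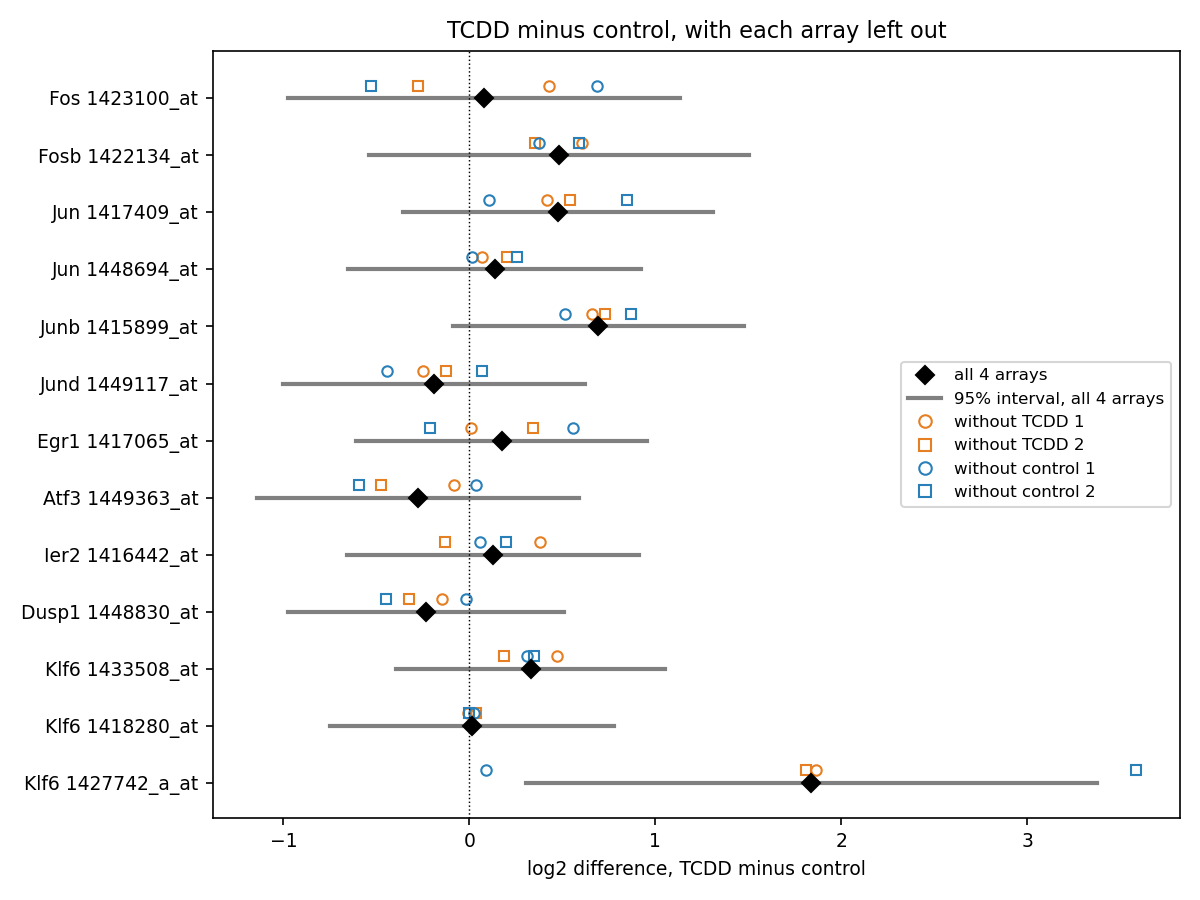
Log2 difference of TCDD minus control for the 13 probe sets (diamonds, 95% intervals in grey, n = 2 per group), with open symbols for the value when 1 array is left out. Junb, Fosb, both Jun probe sets and the Klf6 probe sets 1433508_at and 1427742_a_at keep positive values throughout. Fos moves between -0.53 and 0.68, and the Klf6 probe set 1427742_a_at moves between 0.092 and 3.58.

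The comparison of back skin with the unnamed site asked how far the members followed the skin site or the experiment. Again 0 of 13 passed at an adjusted p under 0.05, against 0% of all (limma, adjusted p = 0.9994 for each), and 1 of 13, the Klf6 probe set 1427742_a_at with its low control 1, had an unadjusted p under 0.05, against 2.02% of all. Egr1 was lower on both back skin arrays (478.7 and 365.2) than on both others (603 and 622), with a log2 difference of back skin minus unnamed site of -0.55 ± 0.34. Ier2 was higher on both back skin arrays (1927 and 1552) than on both others (1352 and 1410), with 0.32 ± 0.34. The Klf6 probe set 1418280_at was slightly lower on both back skin arrays (495.2 and 493.9) than on both others (509.8 and 502.7), with -0.034 ± 0.34. The share of all probe sets tested that separated by preparation in this way was not counted.

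The other genes of the pathway were read from lists by the brightest probe set of each gene, and in every list 0 members passed the test in either direction (limma, adjusted p = 0.9999 for those named), with 0 at an unadjusted p under 0.05. Of 12 other AP-1 and related leucine zipper genes, 9 were measured (median 4.1e-05). After TCDD, 3 had higher values in both preparations (19.3% of all probe sets tested) and 2 lower values (21.3%). Maff, a small Maf protein, read 211.2 and 452.7 in TCDD samples and 315.5 and 132.5 in controls (0.60 ± 0.53), with the same high and low arrays as Fos. Atf7, a relative of Atf2, read 239.8 and 272.3 in TCDD samples and 123.6 and 231.4 in controls (0.60 ± 0.39). Batf3, a factor required for some dendritic cell lineages, read 1968 and 2906 in TCDD samples and 1693 and 1574 in controls, without overlap (0.55 ± 0.35).

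Of 36 other immediate early and rapid response genes, 26 were measured (median 0.0040). Of these, 2 had higher values in both preparations (19.3% of all probe sets tested) and 3 lower values (21.3%), while 21 went opposite ways (59.4%). Cited2, a transcriptional coregulator, read 1741 and 817.2 in TCDD samples and 1676 and 1880 in controls (-0.57 ± 0.40), TCDD 2 being the low array. Klf4, a Krüppel-like factor, read 478.4 and 532.8 in TCDD samples and 294 and 408.3 in controls, without overlap (0.54 ± 0.34). Nr4a1, an orphan nuclear receptor, read 349.4 and 356.5 in TCDD samples and 343.6 and 228.2 in controls (0.33 ± 0.36).

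Upstream of AP-1, 18 of 23 kinases and transcription factors were measured (median -0.13). In both preparations 3 had higher values (19.3% of all probe sets tested) and 4 lower values (21.3%). Mapkapk2, a kinase activated by p38, read 852.3 and 754.6 in TCDD samples and 372.2 and 810.3 in controls (0.55 ± 0.40), control 1 being the low array. Rps6ka3, a kinase activated by ERK, was lower in both preparations (-0.51 ± 0.34), as was Mapk9, which encodes the Jun kinase JNK2 (-0.47 ± 0.36).

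Of 12 genes known as AP-1 targets, 8 were measured (median 0.15). In both preparations 2 had higher values (19.3% of all probe sets tested) and 2 lower values (21.3%). Cd44, a hyaluronan receptor, read 7825 and 7483 in TCDD samples and 3777 and 7395 in controls (0.53 ± 0.35), again with a low control 1. Plaur, the urokinase receptor, differed by 0.29 ± 0.36 and Mmp13, a collagenase, by 0.27 ± 0.48. Heat shock genes, which mark protein stress, were measured in 10 of 11 cases (median -0.020). Of these, 1 had higher values in both preparations (19.3% of all) and 1 lower values (21.3%). Hsph1 differed by -0.31 ± 0.34, Hspb1 by -0.25 ± 0.37 and Hspe1 by 0.22 ± 0.32. The 10 members had a median of 0.15, against -0.0064 over all probe sets tested.

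**Figure D4:**
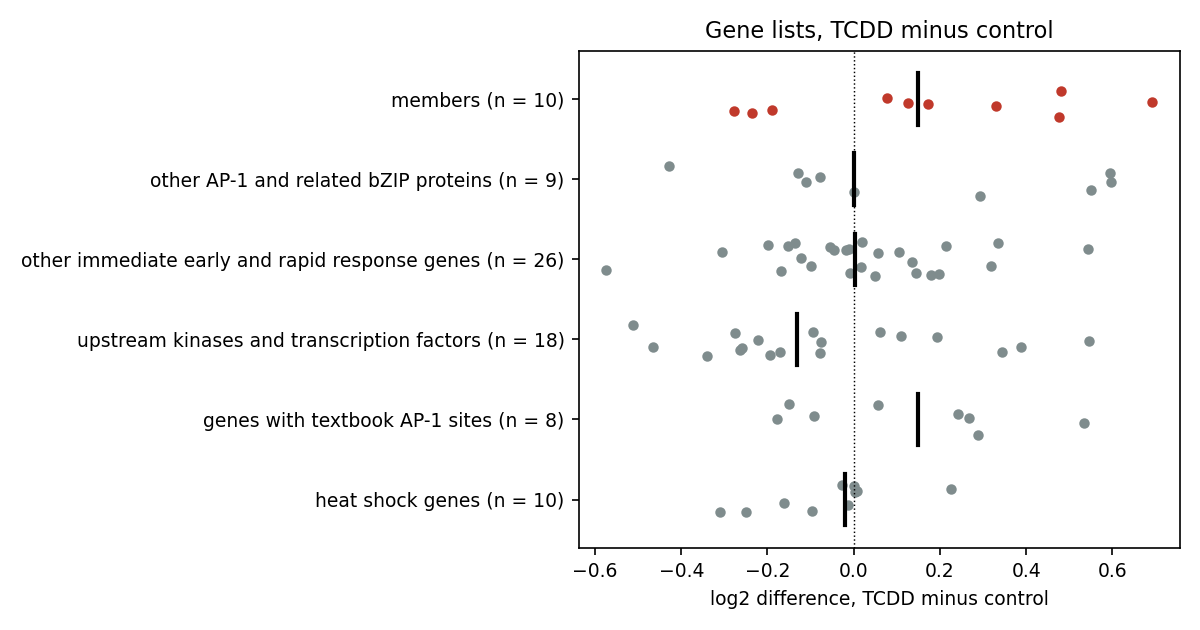
Log2 difference of TCDD minus control for each measured gene of 6 lists (1 point per gene, by its brightest tested probe set; vertical bars are the list medians). The 10 members spread from -0.28 to 0.69 with a median of 0.15, and the other lists overlap them.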

How the data were processed

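Each of the 4 samples was hybridised to its own one-colour Affymetrix array. The deposited intensities are linear MAS5 signals made with affy, per the submitters' processing notes. Tool versions, detection calls and the genome build were not given in the sources used here. Each array had a mean of 500 after 2% of probe sets were removed at either end. RNA was amplified with a MessageAmp kit, per the labels' protocols, which favours the 3′ end. Of 22690 probe sets, 64 were array controls. Signals were taken to log2 without further normalization. The 13576 probe sets with a mean log2 signal at or above the 40th percentile (6.85) were fitted in limma 3.58.1 (R 4.3.3) with treatment and preparation, eBayes with a trend and Benjamini-Hochberg adjustment over all of them, leaving 1 residual degree of freedom per probe set. The fit was tested on simulated data. Deviations of same-preparation arrays had an r of -0.18, so they did not deviate together. This value gives the pairing of arrays into preparations no support beyond the titles. The number of arrays limits the precision. All member probe sets are named, and per list the 3 genes with the largest difference. Members and lists were chosen with earlier results of these data known. Alternatives covered normalization, filter, floor, offset, trend, block, single arrays and 1 probe set per gene.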

Additional observations from a re-analysis of the deposited data

Results flagged for a closer look

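For 7 probe sets the ratio of TCDD to control had opposite signs in the 2 preparations, each from 1 pair of arrays, and the difference between preparations was not tested. Fos had log2 ratios of -0.88 for the unnamed site and 1.04 for back skin. Atf3 had -0.79 and 0.23, Dusp1 -0.54 and 0.067, Egr1 -0.045 and 0.39, and Ier2 -0.061 and 0.31, in the same order. Jund had 0.13 for the unnamed site and -0.51 for back skin, and the Jun probe set 1448694_at had 0.33 and -0.055. Among all 13 member probe sets, 5 had the ratio lower for the unnamed site and higher for back skin, against 25.8% of all probe sets tested. The reverse pattern held for 2 of the 13, against 33.5% of all.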

How the results depend on the processing

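Among the log2 differences for TCDD recomputed under the alternatives, 155 kept their direction and their side of the threshold, 9 changed sign and 1 newly passed. With all 4 arrays, 1 sign changed: the Klf6 probe set 1418280_at gave -0.0065 under quantile normalization. With single arrays left out, in fits that also drop the preparation and let a lone array borrow the spread of the other group, the range was -0.53 to 0.68 for Fos, -0.59 to 0.037 for Atf3, -0.21 to 0.56 for Egr1, -0.13 to 0.38 for Ier2, -0.44 to 0.067 for Jund and -0.0089 to 0.033 for Klf6 1418280_at. Klf6 1427742_a_at passed without control 2 (0.092 to 3.58). For back skin it spanned -0.0036 (without control 1) to 3.55 (without TCDD 1, limma adjusted p = 0.000999). In these fits, which change both choices, the number of probe sets past 0.05 ranged from 0 to 285 for TCDD (12 without control 1, 285 without control 2) and from 0 to 89 for back skin (89 without TCDD 1), and among the 13 members from 0 to 1 in both. Counting the members with both TCDD arrays above the controls gave 8 without control 1 and 7 without control 2, against 5 with both. With all 4 arrays and without the preparation (no replicate block) 0 probe sets passed in either comparison. Fosb was not tested under the stricter filter, and the dimmer probe sets of Jun and Klf6 have no value with 1 probe set per gene. The cause of these changes was not tested.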

Other observations

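Besides Maff, other genes of the lists had the same pair of high and pair of low arrays as Fos. Among them were Ier5, Nr4a2, Elk3, Map2k4, Mapk14, Creb1, Mrtfa, Mcl1, Hspa1a and Hspa1b, and their share was not counted. Being lower after TCDD for the unnamed site and higher for back skin, a looser pattern, held for 25.8% of all probe sets tested. Socs3 and Mafg are described as examples, named after their values were seen. Socs3, a feedback inhibitor of cytokine receptors, read 560.9 on TCDD 1 and 2294 on TCDD 2, against 2107 on control 1 and 722.9 on control 2, log2 ratios of -1.91 for the unnamed site and 1.67 for back skin. Mafg, a small Maf protein, read 266.9 on TCDD 1 and 282.9 on TCDD 2, against 476.8 on control 1 and 176.4 on control 2, with ratios of -0.84 and 0.68. Klf10, a Krüppel-like factor, had the reverse pattern, 437.9 on TCDD 1 and 184 on TCDD 2, against 194.9 on control 1 and 440.3 on control 2, with ratios of 1.17 and -1.26. Gem, Tob1, Dusp2, Atf2 and Map2k1 were among others with the reverse pattern. The arrays high for Klf10 were those with the higher T cell marker sums, the higher Cd207 signals and the lower actin 3′ to 5′ ratios. The part of these was not tested.

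The mean profile of the 10 genes over the arrays, by their brightest probe sets, was nearly flat, with centred log2 values of -0.00077 on TCDD 1 and 0.17 on TCDD 2, against -0.031 on control 1 and -0.13 on control 2. Among 2663 probe sets spanning at least 1 log2 unit, those most like it over the 4 arrays read Eif2d, Ramp1, Csrp1, Nanos1 and Rbm39, with Pearson's r between 0.9922 and 0.9982. With 4 arrays from shared preparations such values are a description.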
